A study of Mus musculus with 6 samples.

Results

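The apolipoprotein genes Apoa1, Apoa2, Apoa4, Apob, Apoc1, Apoc3, Apod, Apoe and Apom were followed in mouse embryonic stem (ES) cells with and without Satb1. They were taken by gene symbol, each from a probe set annotated to 1 gene only, and all 9 of 9 were measured among 19938 genes. Each had 1 such probe set, so no choice between probe sets was needed. The family was selected on measured values: Apoa2 differed between the groups in an earlier look at the same arrays. The Apoa2 difference is therefore given as a description with no test, and the other 8 genes were tested within a fit of all genes.

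The wild-type group (WT, 3 arrays, replicates 1, 2 and 3) and the Satb1-/- group (knockout, 3 arrays, labelled clone 1-1, 1-2 and 2-1) both carried a HygroTK marker, engineered into the Oct4 locus. Both grew for 3 days in serum medium with LIF, on irradiated feeders and under hygromycin. The marker lets ES cells that use that locus survive this drug. The effect of the drug on the feeders was not tested. Feeders were reduced by settling for 10 minutes, and RNA came from the upper 50% of the suspension. Strain, sex and the deleted part of Satb1 are not given in the labels. The labels do not name separate cultures for the arrays. The p-values thus cover the spread from array to array, possibly a technical one, and the labels do not explain the clone numbers.

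Apolipoproteins are the protein part of lipoproteins, the particles that carry fat and cholesterol between cells. The exchangeable ones (the Apoa and Apoc proteins and Apoe) are built of amphipathic helices and move between particles, whereas Apob stays with the particle on which it was made. Apod and Apom belong to another fold, the lipocalins. Liver, gut and, in the embryo, the yolk sac endoderm are the main sources of most of them.

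Values are log2 expression after RMA, a standard array summary, and differences are knockout minus wild type in log2 units with the standard error (SE). The threshold for a change was a limma p under 0.05 after Benjamini-Hochberg adjustment over all 19938 genes. It was passed by 184 genes in the higher direction (0.923%) and 95 in the lower (0.476%), and 3020 genes (15.1%) had groups that did not overlap. Centring each array on its median moved the split to 159 and 47. Of all 19938 differences, 9679 were above 0. Array medians over all probe sets lay between 4.69 and 4.85. On the first principal component (36.15% of the variance) WT replicates 1, 2 and 3 scored 26.7, 10.6 and 3.69. The knockout arrays scored -15.5 to -12.7, so WT replicate 1 lay furthest from them. WT replicate 3 stood apart on the second principal component (29.4% of the variance, score 29.3 against -13.1 to -0.51 for the other 5 arrays). Satb1 itself read 5.14 ± 0.16 in WT and 4.47 ± 0.10 in the knockout (SD, n = 3 each; difference -0.67, limma adjusted p = 0.022). The Satb1 call was lost without WT replicate 1 or without any 1 knockout array (-0.72 to -0.62).

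Apoa2, which encodes the second most abundant protein of high-density lipoprotein (HDL), read higher in every knockout array. Its values were 5.02, 4.87 and 4.92 in WT replicates 1, 2 and 3, and 7.63, 7.11 and 7.40 in knockouts 1-1, 1-2 and 2-1. The groups did not overlap, and the lowest knockout array stood far above the highest WT array. The means were 4.93 ± 0.08 and 7.38 ± 0.26 (SD, n = 3 each), a difference of 2.45 (SE 0.14) or 5.45-fold. It ranked 2 among the 19938 differences. In WT it lay near the array median, and since array signal has a floor, the true fold of a dim gene can be larger than the one read. In RNA from many cells, a higher level per cell and a larger share of cells with the RNA cannot be told apart.

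**Figure D1:**
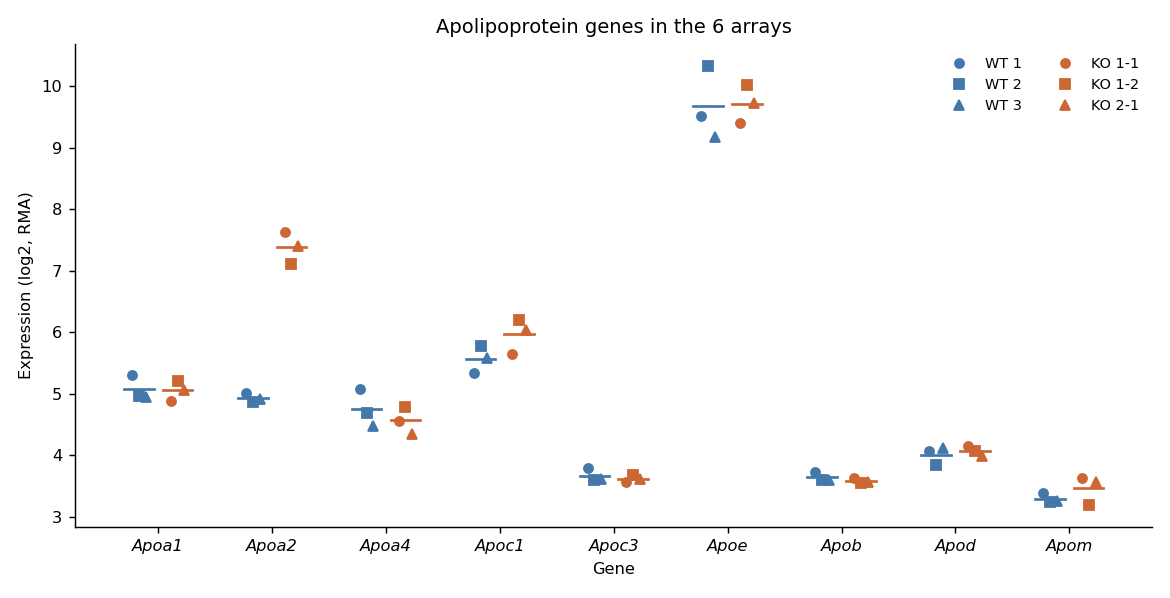
Expression (log2, RMA) of the 9 apolipoprotein genes in each array, with WT in blue, knockout (KO) in orange and the group mean as a line. Apoa2 is the gene whose groups separate (4.93 and 7.38); for the other 8 the points of both groups overlap.

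The sequence before the start of Apoa2 is shown beside that of Apoa1, its partner in HDL, because these are the members compared most closely here. The first lines give the 250 bases upstream of a RefSeq start (GRCm38.p6), Apoa2 at chr1:171224804-171225053 on the plus strand and Apoa1 at chr9:46228380-46228629 on the plus strand. Capitals mark a TATAAA, which in Apoa2 lies 212 to 207 bases before that start and is absent from the Apoa1 window. RefSeq lists another start of Apoa2 further upstream, beside the neighbouring gene Tomm40l. The third line gives 30 bases of its window, chr1:171221314-171221343 on the plus strand, with capitals on TGACCTT, the reverse complement of AAGGTCA.
Apoa2: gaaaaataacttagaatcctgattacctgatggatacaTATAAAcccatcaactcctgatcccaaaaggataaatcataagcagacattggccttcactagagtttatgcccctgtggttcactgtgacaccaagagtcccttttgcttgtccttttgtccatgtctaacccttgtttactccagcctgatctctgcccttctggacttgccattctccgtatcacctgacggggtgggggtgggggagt
Apoa1: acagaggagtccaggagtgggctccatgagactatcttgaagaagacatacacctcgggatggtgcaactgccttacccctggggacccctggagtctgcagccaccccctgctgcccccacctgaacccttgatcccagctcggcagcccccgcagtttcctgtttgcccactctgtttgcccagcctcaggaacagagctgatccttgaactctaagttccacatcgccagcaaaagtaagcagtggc
Apoa2 upstream start: gtctcccaccctTGACCTTtttttccatcc

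AAGGTCA is a half-site bound by several nuclear receptors, and binding by any of them was not tested. Searched on both strands of the 250 bases, it was found in 1 of the 10 windows of the 7 family members with a promoter entry, the Apoa2 window just shown, and in 4.08% of all 32851 windows. TATAAA was found in 3 of the 10 windows and in 12.4% of all. CACGTG, the E-box read by USF factors, was in 0 of the 10 windows and in 6.02% of all, the direct repeat of AGGTCA with 1 base between (DR1) in 0 and 0.0335%, and CAAAGTCCA, an HNF4 site, in 0 and 0.384%. The letters searched were chosen after the sequences had been seen, and a match describes letters only. The share of G and C ran from 36.4% in Apod to 58.0% in Apoa1 (median of all windows 52.4%). The Apoa2 windows held 2 and 1 CpG, against a median of 6.

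Apoa1 encodes the main protein of HDL. It read 5.31, 4.97 and 4.94 in WT and 4.89, 5.21 and 5.07 in the knockout, so the groups overlapped. The difference was -0.02 (SE 0.13, 95% interval -0.31 to 0.28, limma adjusted p = 0.989). With 1 array left out at a time it ran from -0.09 to 0.10. The upper end of the interval is 1.21-fold as read on the array, beside 5.45-fold read for Apoa2, and the signal floor named above bears on both genes.

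Apoa4, an apolipoprotein of chylomicrons made chiefly in the gut, read 5.08, 4.69 and 4.48 in WT and 4.56, 4.79 and 4.34 in the knockout. The WT arrays alone spanned more than the groups differed (-0.18, SE 0.17, adjusted p = 0.829 by limma). Apoc3, which inhibits the clearance of fat-rich particles, read 3.79, 3.60 and 3.61 against 3.57, 3.67 and 3.62. Its difference was -0.04 (SE 0.11, limma adjusted p = 0.956), and the groups overlapped.

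Apoc1, a small apolipoprotein that modulates lipases and lipid transfer, had the next largest difference of the family. It read 5.34, 5.77 and 5.59 in WT and 5.65, 6.19 and 6.04 in the knockout. Knockouts 1-2 and 2-1 were above all WT arrays, while 1-1 lay below WT replicate 2. The difference of 0.40 (SE 0.16, 95% interval 0.04 to 0.75) had an unadjusted p of 0.0312 and did not pass over all genes (limma adjusted p = 0.393).

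Apoe, the ligand by which remnant particles are taken up through LDL-receptor family members, gave a bright signal in both groups. It read 9.52, 10.33 and 9.17 in WT and 9.39, 10.01 and 9.73 in the knockout. WT replicate 2 was the highest and WT replicate 3 the lowest of all arrays, so the knockout arrays lay within the WT range. The difference was 0.04 (SE 0.26, 95% interval -0.53 to 0.61, limma adjusted p = 0.987). It was 0.37 without WT replicate 2, -0.21 without WT replicate 3 and -0.29 with limma's array weights, so no direction is given for Apoe.

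Fibroblast markers of the feeder layer did not share 1 order among the WT arrays. Of 22, 10 had the WT order of Apoe (replicate 2 highest, 3 lowest), and 10 were highest in WT replicate 3, the array lowest in Apoe. Dcn and Fn1, of the first kind and chosen after their values were seen, stand as examples. Dcn read 7.54, 8.33 and 6.88 and Fn1 10.03, 10.39 and 9.70 in WT replicates 1, 2 and 3. In knockouts 1-1, 1-2 and 2-1, Dcn read 8.35, 7.92 and 8.25, the opposite order to Apoe, whereas Fn1 read 10.28, 10.41 and 10.37, the same order as Apoe. Vim, of the second kind, read 10.41, 10.27 and 10.61 in WT. The part of feeder cells in the Apoe values was not tested.

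Apob, the large protein of very-low-density and low-density lipoprotein, read 3.74, 3.60 and 3.59 in WT and 3.64, 3.56 and 3.57 in the knockout (difference -0.06, SE 0.10, limma adjusted p = 0.942). The lipocalin Apod, a carrier of small lipids, read 4.08, 3.84 and 4.12 against 4.15, 4.08 and 3.995 (0.06, SE 0.11, limma adjusted p = 0.944). Apom, the carrier of sphingosine 1-phosphate on HDL, read 3.39, 3.24 and 3.25 against 3.64, 3.20 and 3.57 (0.18, SE 0.13, limma adjusted p = 0.764). Knockouts 1-1 and 2-1 were above all WT arrays in Apom and 1-2 was below them all. Dim signals such as these 3 are compressed, so that small changes could be missed.

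Among the 8 genes other than Apoa2, limma called 0 changed, with 1 (Apoc1) at an unadjusted p under 0.05 (10.5% of all genes), and limma with an intensity trend also called 0. In all genes 1.40% were called in either direction, so both counts in 8 are near the background. The 8 differences ran from -0.18 to 0.40 with a median of 0.01, against -0.00 over all genes. Groups that did not overlap were found in 0 of the 8 (15.1% of all genes). The upper ends of their 95% intervals lay between 0.17 for Apob and 0.75 for Apoc1. All of these bounds stand below the Apoa2 difference of 2.45. The misses do not show that the 8 genes stayed the same, only that changes beyond these intervals were not seen.

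Among 14 further measured apolipoprotein genes limma called 0 (1.40% of all genes), with 1 (Clu) at an unadjusted p under 0.05 (10.5%). Neither count stands above these shares. The 14 differences ran from -0.38 to 0.35 with a median of -0.00. Clu, also named apolipoprotein J, a chaperone of secreted proteins, read 6.40, 6.65 and 6.89 in WT and 6.08, 6.26 and 6.46 in the knockout (-0.38, SE 0.15, limma adjusted p = 0.357). Saa3, a serum amyloid gene of the acute phase, read 5.77, 5.59 and 6.58 against 6.34, 6.25 and 6.40 (0.35, SE 0.21, limma adjusted p = 0.665). Without WT replicate 3, the array apart on the second component, the Saa3 difference was 0.65 and passed (limma adjusted p = 0.0137). In WT only that array lay above the knockout arrays.

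**Figure D2:**
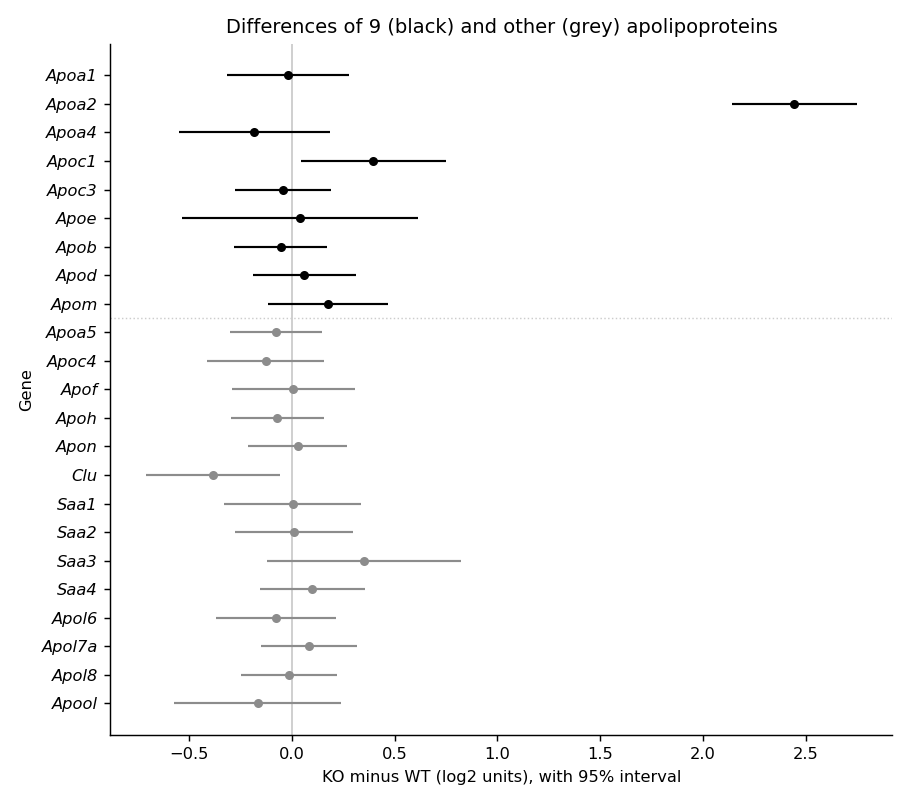
Knockout minus WT difference (log2 units) with its 95% interval from limma, for the 9 apolipoprotein genes (black) and 14 others (grey). Apoa2 stands at 2.45; the other 22 points lie between -0.38 and 0.40.

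Several of these genes sit side by side, so the measured neighbours were read too, in RefSeq gene order. No distances are given, because the sources used here name no build for the array. Apoa2 lies on chromosome 1 between Tomm40l, whose RefSeq span overlaps it, and Fcer1g, the gene of an Fc receptor chain. Tomm40l, a relative of the mitochondrial import pore, read 5.94, 6.12 and 6.78 in WT and 6.45, 5.99 and 6.44 in the knockout, and differed by 0.02 (SE 0.21, adjusted p = 0.994 by limma). Fcer1g differed by -0.16 (SE 0.12, adjusted p = 0.757 by limma).

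The 5 measured genes on the Tomm40l side (Tomm40l, Nr1i3, Pcp4l1, Sdhc and Cfap126) differed by -0.14 to 0.02. The 5 on the other side (Fcer1g, Adamts4, B4galt3, Ppox and Usp21) differed by -0.16 to 0.34, with Ppox, a haem synthesis gene, the highest (limma adjusted p = 0.427). Over 10 genes on each side the median was -0.02, the range -0.25 to 0.43, and 7 of 20 were above 0.

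Apoa1, Apoc3, Apoa4 and Apoa5 follow each other on chromosome 9, a gene cluster shared by mammals. Their differences were -0.02, -0.04, -0.18 and -0.08, and those of the genes beside the cluster, Sik3 and Zpr1, 0.02 and 0.03. Apoc4, Apoc1 and Apoe follow each other among the measured genes of chromosome 7, between Clptm1 and Tomm40. There the differences were -0.13, 0.40 and 0.04, and the flanking genes stood at 0.03 and -0.02.

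**Figure D3:**
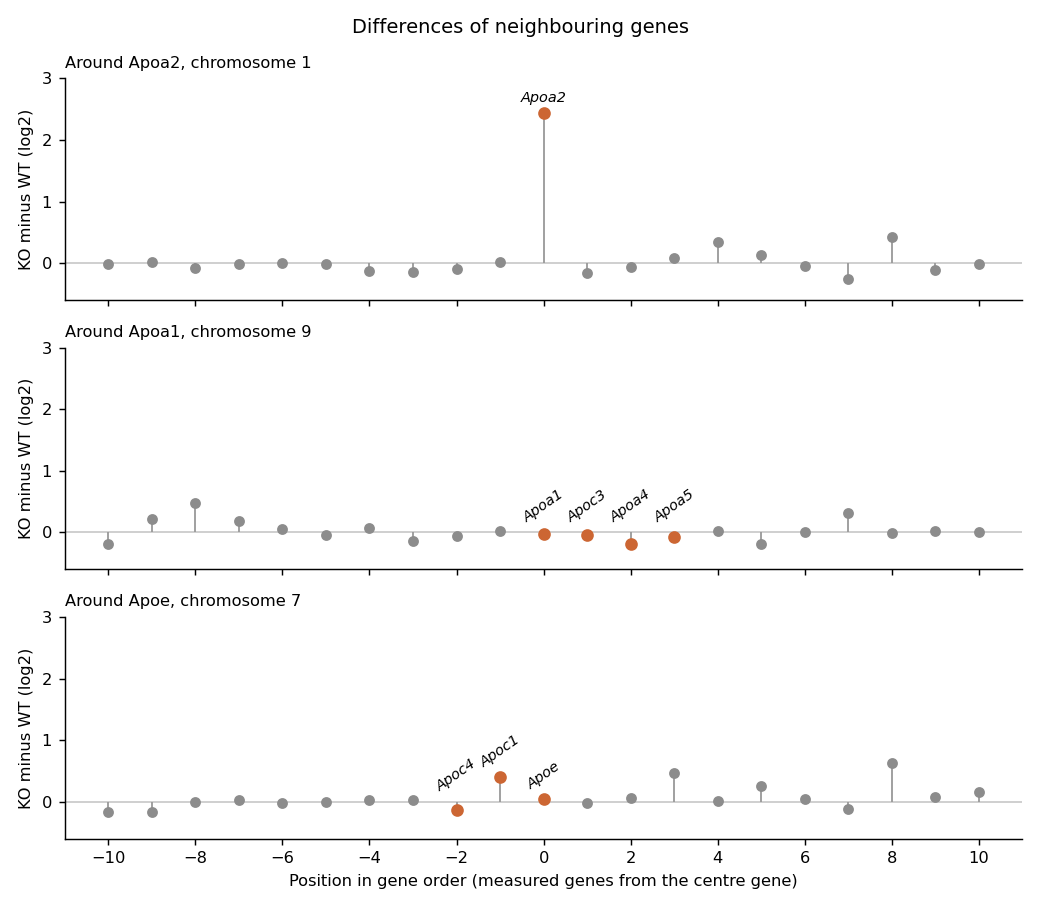
Knockout minus WT difference (log2 units) of the 10 measured genes on each side of Apoa2, Apoa1 and Apoe in RefSeq gene order, apolipoprotein genes in orange. Apoa2 stands at 2.45 among neighbours between -0.25 and 0.43, and the apolipoprotein genes of chromosomes 9 and 7 lie between -0.18 and 0.40.

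Transcription factors listed as regulators of apolipoprotein genes were measured next. The list was chosen with earlier results known and also holds Esrrb, which is counted below among the ES cell markers too. Of 35, 2 were changed by limma, both higher (Nr5a2 and Esrrb, against 0.923% of all genes), and 0 were lower (0.476%). The median was -0.03 against -0.00 over all genes. Nr5a2, a nuclear receptor of early embryo, liver and gut, read 6.38, 6.27 and 6.74 in WT and 7.98, 7.53 and 7.83 in the knockout, and the groups did not overlap. It rose by 1.32 (SE 0.15, limma adjusted p = 0.00209).

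Esrrb, an orphan receptor of the ES cell network, rose from 8.50, 8.82 and 8.62 to 9.23, 9.17 and 9.20 (0.56, SE 0.11, limma adjusted p = 0.0435). Its call was lost without WT replicate 1 (0.48, adjusted p = 0.106) and without knockout 1-1, 1-2 or 2-1 (0.54, 0.57 and 0.56). Usf1, an E-box factor whose gene lies on chromosome 1 as Apoa2 does, read 6.24, 6.23 and 6.45 in WT and 5.92, 6.04 and 5.97 in the knockout. The Usf1 groups did not overlap, but the difference of -0.33 (SE 0.11) missed the threshold (limma adjusted p = 0.237).

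Hnf4a, a principal activator of apolipoprotein genes in liver, read 5.08, 4.61 and 4.65 in WT and 4.61, 4.77 and 4.61 in the knockout. The difference was -0.12 (SE 0.14, limma adjusted p = 0.886). The endoderm factors Gata4 and Gata6 differed by -0.27 and 0.05 (limma adjusted p = 0.529 and 0.970), and the bile acid and sterol receptors Nr1h4 and Nr1h3 by 0.03 and -0.16 (limma adjusted p = 0.975 and 0.764).

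**Figure D4:**
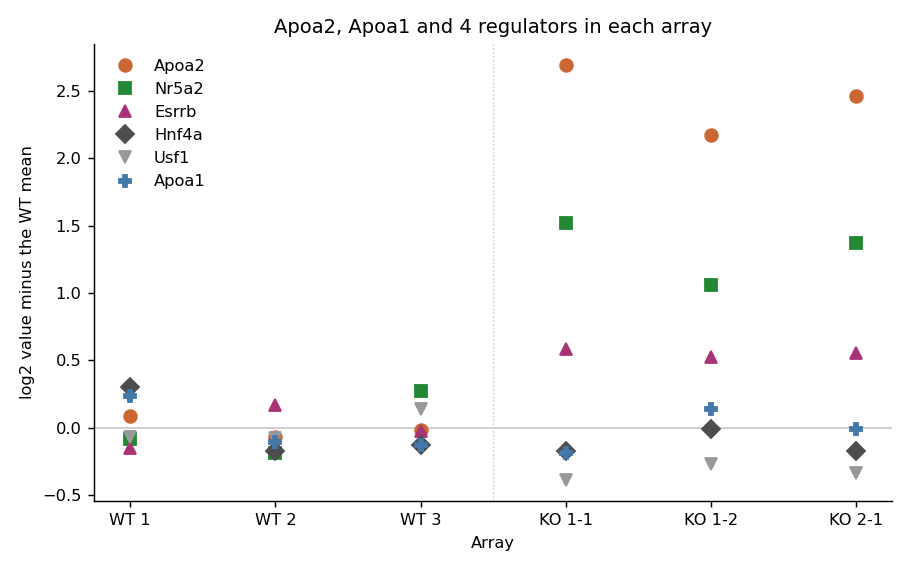
log2 values of Apoa2, Apoa1, Nr5a2, Esrrb, Hnf4a and Usf1 in each array after subtraction of the gene's WT mean. Apoa2, Nr5a2 and Esrrb are above 0 in all 3 knockout arrays (mean differences 2.45, 1.32 and 0.56). Usf1 is below 0 in all 3 knockout arrays, and Hnf4a and Apoa1 stay near 0.

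Apolipoproteins are loaded with lipid, exported and remodelled by other proteins, of which 28 were measured. By limma 1 was higher (Sar1b, against 0.923% of all genes), 0 were lower (0.476%), and the median was 0.04. Sar1b, the GTPase of the transport vesicles that carry chylomicrons out of the endoplasmic reticulum, read 7.79, 7.92 and 8.04 in WT and 8.60, 8.56 and 8.67 in the knockout. It rose by 0.69 (SE 0.11, limma adjusted p = 0.0114). The 20 genes around it on chromosome 11 had a median difference of 0.48, with 18 above 0. The call was lost without knockout 1-1, 1-2 or 2-1 (0.69, 0.72 and 0.66).

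Mttp, which loads lipid onto Apob, differed by 0.13 (limma adjusted p = 0.807), and Abca1, which loads lipid onto Apoa1, by 0.03 (limma adjusted p = 0.973). The HDL remodelling gene Pltp read 7.01, 7.70 and 7.36 in WT and 7.49, 7.97 and 7.69 in the knockout (0.36, SE 0.18, limma adjusted p = 0.558), with overlapping groups. Apobec1 encodes the enzyme that edits Apob RNA, and lies on chromosome 6 among 20 genes with a median difference of 0.35, 18 of them above 0. It differed by 0.11 (SE 0.14, 95% interval -0.21 to 0.43, limma adjusted p = 0.901).

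Of 26 receptor and uptake genes, 1 was higher by limma (Lrp6) and 0 lower, against 0.923% and 0.476% of all genes. The median was 0.03. Lrp6 is of the LDL-receptor family but is known mainly as a Wnt co-receptor. It read 7.77, 7.99 and 7.64 in WT and 9.38, 9.44 and 9.40 in the knockout, a rise of 1.60 (SE 0.12, limma adjusted p = 0.000254), among 20 neighbours on chromosome 6 with a median of 0.53. The HDL receptor Scarb1 differed by 0.31 (limma adjusted p = 0.538), the Apoe receptor Vldlr by -0.09 (adjusted p = 0.944) and Lrp2, a receptor of yolk sac and kidney, by -0.13 (adjusted p = 0.847). The Apoe receptor Lrp1 differed by 0.44 with groups that did not overlap (limma adjusted p = 0.128). Scarb2, a lysosomal protein, differed by 0.49 (limma adjusted p = 0.433) and passed without WT replicate 2 (0.77).

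**Figure D5:**
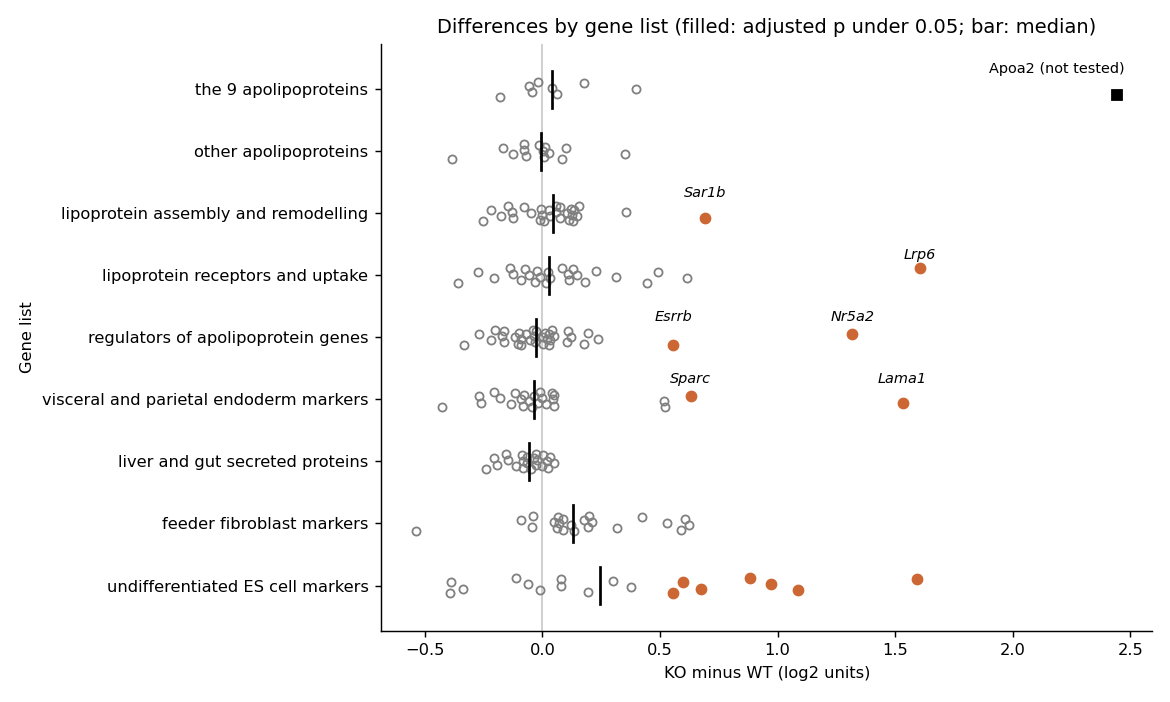
Knockout minus WT difference (log2 units) of each measured gene by list, filled orange where limma's adjusted p was under 0.05, with the list median as a bar and Apoa2, which was not tested, as a black square. Sar1b, Lrp6, Nr5a2 and Esrrb are the filled genes of the 3 lipoprotein and regulator lists.

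Cells that normally make apolipoproteins were checked through their markers. Of 25 markers of visceral and parietal endoderm, 2 were higher by limma (Lama1 and Sparc) and 0 lower, against 0.923% and 0.476% of all genes. The median was -0.04, and 9 differences were above 0. The mean level of the list was 5.18, 5.09 and 5.08 in WT and 5.15, 5.23 and 5.13 in the knockout. Lama1, a laminin chain of basement membranes, rose by 1.53 (limma adjusted p = 0.00159) and Sparc, a secreted matrix protein, by 0.63 (limma adjusted p = 0.0281). Col4a1 and Col4a2, collagen genes of the same list, differed by -0.43 and -0.18 (limma adjusted p = 0.195 and 0.650), with groups that did not overlap. Both lie on chromosome 8 among 20 neighbours with medians of -0.12 and -0.14, 2 of them above 0 for each gene. Sparc lost its call without any 1 of WT replicates 1 and 2 and the 3 knockout arrays (0.55 to 0.66), and the laminin gene Lamb1 (0.52, limma adjusted p = 0.0738) passed without WT replicate 2 (0.62). The visceral endoderm products Afp, Ttr and Amn differed by -0.04, -0.00 and -0.21 (limma adjusted p = 0.963, 1.00 and 0.716).

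Of 22 secreted or enterocyte proteins of liver and gut, limma called 0 (1.40% of all genes), with 0 at an unadjusted p under 0.05 (10.5%). The median was -0.06, and 5 differences were above 0. Their mean level ran from 3.78 to 4.02 in WT, with replicate 1 the highest, and from 3.81 to 3.84 in the knockout. The highest difference in this list was 0.05.

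The feeder list (22 fibroblast markers) held 0 changed genes by limma (1.40% of all genes). It held 5 at an unadjusted p under 0.05 (10.5% of all genes), and its median was 0.13. Of the 22 differences, 18 were above 0, against 9679 of 19938 over all genes. Thy1 (0.62), Postn (0.61), Dcn (0.59), Pdgfra (0.53) and Col1a2 (0.42) led them, and Cnn1 was the lowest at -0.54. Col1a2 passed without WT replicate 2 (0.63). The mean level of the feeder list was 6.60, 6.70 and 6.50 in WT replicates 1, 2 and 3 and 6.91, 6.62 and 6.80 in knockouts 1-1, 1-2 and 2-1. Knockouts 1-1 and 2-1 were above every WT array in this level and 1-2 lay within the WT range, the knockout order being that of Apoa2. The WT order was not: replicate 2 was the highest WT array in this level and the lowest in Apoa2 (4.87). The part of feeder cells in the Apoa2 values was not tested. Col1a1, a fibroblast collagen, differed by 0.12 (limma adjusted p = 0.857).

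Markers of the labelled cell type gave bright signals, with a mean level of 8.46 to 8.71 in WT and 8.92 to 8.94 in the knockout. Hygromycin selected through the Oct4 locus, so the Pou5f1 level is no independent check of cell identity. Pou5f1 (Oct4) read 10.13, 10.00 and 10.53 in WT and 9.82, 9.78 and 9.90 in the knockout (-0.39, limma adjusted p = 0.309). Of 18 ES cell markers limma called 7 higher and 0 lower, against 0.923% and 0.476% of all genes. The median was 0.25, and 12 differences were above 0, led by Tbx3 (1.59), Nanog (1.09), Klf4 (0.97) and Tfcp2l1 (0.88). Dppa4 (-0.39, limma adjusted p = 0.234) and Lin28a (-0.34, limma adjusted p = 0.361) read lower in the knockout and were not called. Their groups did not overlap, nor did those of Pou5f1. Nanog and Klf4 lie among neighbours with medians of 0.25 and 0.17, whereas the neighbours of Tbx3 and Tfcp2l1 had medians of -0.03 and 0.05. Klf4 lost its call without any 1 array but WT replicate 3 (0.80 to 1.05), and Tfcp2l1 without WT replicate 1 or knockout 1-2 or 2-1 (0.78, 0.76 and 0.88). Dppa3 (0.67) lost it without any 1 of the 6 arrays but knockout 1-2, and Klf5 (0.60) without any 1 knockout array. The count of 7 fell to 3 without WT replicate 1, knockout 1-1 or knockout 1-2 and to 2 without knockout 2-1.

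The genes most like Apoa2 were those with the smallest root mean square difference from it over the 6 arrays, each gene centred on its own mean. The measure picks genes with a difference of like size. The nearest 5 were Lrp6 (0.47), Prmt8 (0.48), 2210409E12Rik (0.52), Ptpn6 (0.52) and Khdc3 (0.53), with knockout minus WT differences of 1.60, 1.70, 1.95, 1.46 and 1.56. Lrp6, Prmt8 and Ptpn6 lie on chromosome 6 among neighbours with medians of 0.53, 0.61 and 0.33. Khdc3, an oocyte and ES cell gene on chromosome 9, had neighbours with a median of 0.01, beside -0.02 for those of Apoa2. 2210409E12Rik read 6.88, 6.73 and 8.05 in WT, where replicate 3 was the highest, and 9.17, 9.19 and 9.15 in the knockout.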

How the data were processed

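Biotin-labelled total RNA of 6 ES cell samples was hybridised to 1-colour arrays. The authors deposited log2 values made with RMA, per the submitters' processing notes; for version and settings, not given in the sources used here. Of 35557 probe sets, 21789 had exactly 1 symbol in the platform annotation, 1621 several and 12147 none, and the brightest probe set per gene left 19938 genes, 19853 of them placed by RefSeq (GRCm38.p6). Groups came from the sample titles and were compared with limma 3.58.1 in R 4.3.3 (lmFit, then eBayes), with all genes kept and group as the only term. Adjusted p-values are Benjamini-Hochberg values over all genes, and 95% intervals come from the same fit. The fit was tested on simulated data. The local median of a gene is that of 10 measured genes on each side. Named genes were the family, Satb1, the neighbours of its clusters and 5 genes on each side of Apoa2, fixed genes and up to 4 changed genes of each list, and the 5 genes most like Apoa2. Apoa5, Apoc4, Clu, Saa3, Pltp, Apobec1, Lrp1, Scarb2, Lamb1, Col4a1, Col4a2, Dcn, Fn1, Vim, Thy1, Postn, Pdgfra, Col1a2, Cnn1, Dppa3, Dppa4, Lin28a, Klf5, Pou5f1, Nr1h3 and Nr1h4 were added after their values were seen. The family and all lists were chosen with earlier results of these data known. Listed genes without a probe set of their own were not analysed here. Promoter sequences are RefSeq's. Arrays have no depth, and the number of arrays limits precision.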

Additional observations from a re-analysis of the deposited data

How the results depend on the processing

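The Apoa2 difference of 2.45 stayed between 2.32 and 2.58 over 13 alternatives. For the other 8 genes of the family, 0 calls were made under each of them; the differences of Apoa1, Apoc3, Apod and Apoe, none of them called, changed sign in 4, 1, 1 and 4 alternatives. Apob, Apoc3 and Apom fell out under the filter on dim genes (25th percentile), which gives them no value. Counts over all genes (184 higher, 95 lower) were 373 and 235 with array weights, 90 and 27 with knockouts 1-1 and 1-2 averaged as 1 sample, 86 and 23 at an adjusted p under 0.01 and 59 and 17 with a difference of at least 1. A second quantile normalization gave 242 and 183, and centring each array on its median 159 and 47. With 1 array left out at a time the counts ran from 74 to 356 higher and from 19 to 124 lower (without WT replicate 1, 112 and 76; without WT replicate 3, 356 and 124; without knockout 1-1, 1-2 or 2-1, 93, 76 and 74 higher). The cause was not tested. Sar1b also lost its call with knockouts 1-1 and 1-2 averaged (0.705, limma adjusted p = 0.0605), as did Esrrb (0.56, adjusted p = 0.171) and Satb1 (-0.64, adjusted p = 0.118). Satb1 lost it too without WT replicate 1 or any 1 knockout array (-0.72 to -0.62). Esrrb lost it too with arrays centred, and 2210409E12Rik with those knockouts averaged (limma adjusted p = 0.055). Nr5a2 and Lrp6 passed under all 13 alternatives. No paired analysis was possible because the replicate numbers of the groups are not shared. Dim signal limits what can be seen of Apob, Apoc3, Apod and Apom.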
